A study of Mus musculus with 22 samples.

Results

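The comparison described here is the later step of the response to E2F1: what was gained and what was lost between 6 and 12 h of induction. It used 4 of the 22 libraries of the series, namely both replicates of the E2F1 line at 6 h and both at 12 h, and all 11208 genes of the deposited table were compared. The cells were NIH/3T3, an immortalized mouse fibroblast line. The E2F1 line carried a stably integrated doxycycline-inducible E2F1 construct, and the empty vector (EV) line carried the vector without it. Every group was first starved for 48 h in 0.25% serum. The E2F1 line then received 500 ng/ml doxycycline for 6 or 12 h. The EV line received either the same doxycycline for 6 or 12 h, or 10% serum for 6 or 12 h, with 2 libraries for each line, agent and time. The labels do not say whether a line is 1 clone or a pool, nor whether replicates came from separate cultures, so p-values measure only the spread between these samples, which may be technical.

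E2F1 is a transcription factor that, with a DP partner, binds promoters of genes for the start of S phase, among them cyclin E, the MCM helicase and enzymes that make deoxynucleotides. In resting cells pocket proteins hold these genes down. Genes for G2 and mitosis are read later in the cycle. Their promoters are known for CCAAT boxes and for a short element called the CHR, and the MuvB core with B-Myb, together with FoxM1, acts on them. Cyclin A and cyclin B with Cdk1, the Aurora and Polo kinases, the kinetochore and the spindle motors carry the cell through division, and the APC/C ends it by degrading cyclin B and securin.

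The values were counts that the authors had normalized and rounded. Totals of the 4 libraries ran from 35355273 to 37401882 and those of all libraries from 34014608 to 46057140. No gene in the table averaged under 99.6 over the 22 libraries, so scarce transcripts were not compared. Fold changes were taken as differences of log2(value + 1), where low genes appear to change less than they did, and the threshold was an adjusted p of 0.05 in limma. The 2 EV libraries at 6 h of doxycycline stood apart from each other in cell cycle genes: Ccnb1 was at 751 in replicate 1 and at 1505 in replicate 2. All 14 fibroblast markers looked for were in the table, and 3 of 26 markers of other cell types were. The labels name no batch.

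Between 6 and 12 h 1688 genes rose (15.1% of those tested) and 2265 fell (20.2%). Of these, 290 rose and 138 fell at least 2-fold. Among the 10 largest rises that met the naming rule were the kinetochore and spindle genes Spc25, Aurkb, Ska1 and Nusap1, and among the 10 largest falls were the uracil glycosylase gene Ung, the MYC antagonist gene Mxd4 and the immediate early gene Nr4a3. In the EV line the same interval gave 0 rises (0%) and 5 falls (0.0446%) by limma, with 1337 genes at an unadjusted p under 0.05. Without EV 6 h replicate 1 it gave 7 rises and 137 falls, without EV 12 h replicate 2 it gave 12 falls, and without EV 6 h replicate 2 it gave 1 fall. The median change over all genes in the E2F1 line was -0.04, the 12 h pair lay above the 6 h pair in 3512 genes and below it in 4244. Under scaling to equal totals the split was 2130 rises and 1771 falls, so which direction held more genes depended on the scaling. The rises numbered 1073 without E2F1 12 h replicate 2 and 1105 without E2F1 6 h replicate 2, and the falls 1439 without E2F1 6 h replicate 1. These are bulk libraries: more cells in a phase and more RNA per cell cannot be told apart.

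Cyclins and kinases of mitotic entry rose almost as a whole. Of 17 listed genes 16 rose and 0 fell, against 15.1% rises over all genes, and their median change was 1.47 against -0.04. Ccnb1, which encodes cyclin B1 (ENSMUSG00000041431.16, chromosome 13, 100778650 to 100786570), stood at 2309 and 1891 normalized counts at 6 h and at 6654 and 7048 at 12 h. Both 12 h libraries were far above both 6 h libraries, while the 0 h libraries at 1771 and 1686 were close to the 6 h level. The log2 change between 6 and 12 h was 1.71 (SE 0.28, adjusted p 0.000206).

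Cdk1, the kinase that cyclin B activates, had 4852 and 3972 normalized counts at 6 h and 14388 and 14517 at 12 h, a change of 1.72 (SE 0.27, adjusted p 0.000118). Aurkb (ENSMUSG00000020897.12, chromosome 11, 69045647 to 69051664) encodes Aurora B, the kinase of the chromosomal passenger complex. It had 2095 and 1682 at 6 h and 8574 and 8949 at 12 h, 4.64-fold more by the means, and its change of 2.22 (SE 0.30, adjusted p 3.28e-05) led the list. The groups did not overlap in Cdk1, and the naming rule required this of Aurkb. In both genes the 12 h libraries differed less from each other than the 6 h libraries did.

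Plk1, the Polo kinase, went from 1684 and 1407 to 5243 and 5459, a change of 1.80 (SE 0.26, adjusted p 5.65e-05). Ccnb2 encodes cyclin B2, and its change was 1.97 (SE 0.34, adjusted p 0.000292). Mastl encodes the Greatwall kinase, which restrains the phosphatase that opposes Cdk1, and went from 868 and 720 to 2887 and 2628, by 1.80 (adjusted p 0.000266). Aurka (1.64, adjusted p 0.000932) and Ccna2 (1.63, adjusted p 0.00107) also rose. The member that did not pass was Wee1, the kinase that holds Cdk1 inactive, at 2925 and 2756 and then at 2856 and 3242 (change 0.10, adjusted p 0.551). The count of 16 was lowest without E2F1 6 h replicate 2, and no left-out library moved it by more than 1.5 times.

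**Figure D1:**
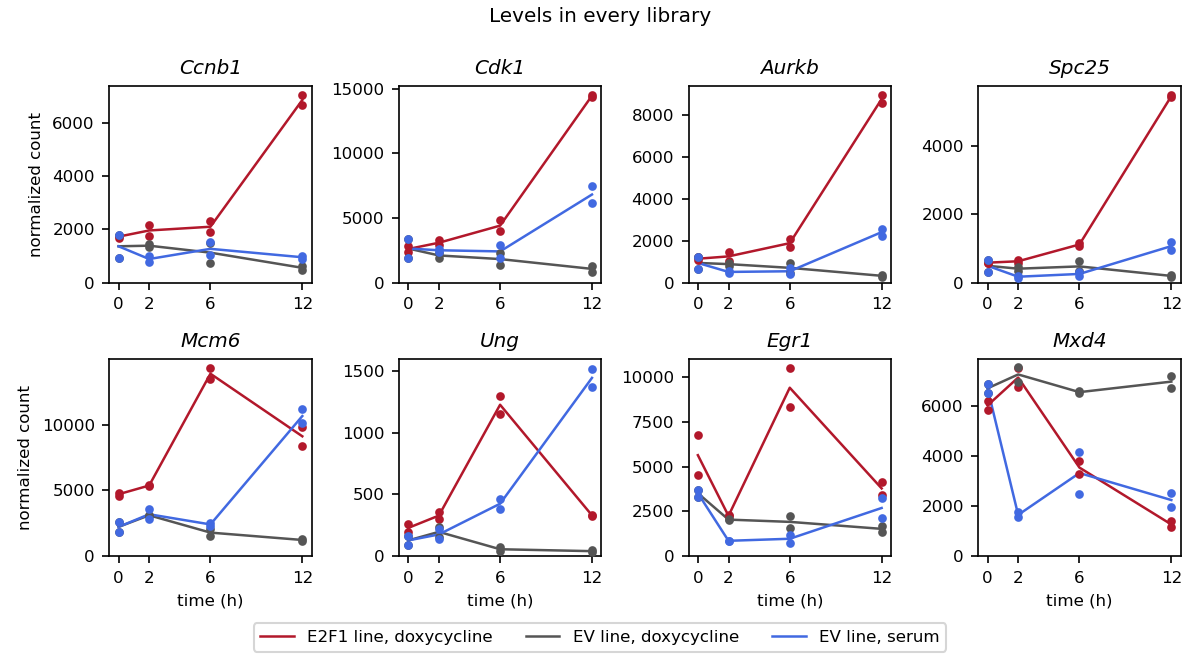
Normalized count (vertical axis, linear from 0) against time in hours for 8 genes; points are single libraries and lines join the means of 2 libraries for the E2F1 line with doxycycline, the EV line with doxycycline and the EV line with serum, which is drawn from the EV 0 h libraries. Ccnb1, Cdk1, Aurkb and Spc25 climb between 6 and 12 h in the E2F1 line, whereas Mcm6, Ung, Egr1 and Mxd4 are lower at 12 h than at 6 h there.

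The kinetochore, which ties chromosomes to microtubules, and the spindle checkpoint that watches over it rose in the same interval. Of 47 listed genes 46 rose and 0 fell, with a median of 1.44. In 47 of 47 the 12 h pair lay above the 6 h pair, against 3512 of all 11208 genes. Spc25 (ENSMUSG00000005233.16, chromosome 2, 69193895 to 69206194), a subunit of the Ndc80 complex, had 1151 and 1087 normalized counts at 6 h and 5484 and 5421 at 12 h. This 4.87-fold difference of the means was the largest log2 change of any gene that met the naming rule (2.28, SE 0.30, adjusted p 2.73e-05). The replicates of each time were within a narrow range and far from those of the other time.

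Ska1, a partner of Ndc80 on microtubules, went from 695 and 559 to 2584 and 2777, by 2.10 (adjusted p 5.23e-05). Bub1b, which encodes the checkpoint protein BubR1, went from 2493 and 2076 to 7866 and 8749, by 1.87 (adjusted p 0.000117). Itgb3bp, the member that did not pass, had a change of 0.68. Genes of the spindle and of cytokinesis had the highest median of all lists, 1.61, with 33 of 34 rising and 0 falling. Nusap1, a protein that bundles spindle microtubules, went from 2476 and 2389 to 9833 and 10523 (2.06, adjusted p 0.000201). Depdc1b changed by 2.02 (adjusted p 0.000993) and Iqgap3, a scaffold of the cell cortex, by 1.93 (adjusted p 1.35e-05). Stil, a centriole factor, had a change of 0.45 and did not pass.

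All 8 listed condensin genes rose, with a median of 1.19, and Ncapg, a subunit of condensin I, went from 1844 and 1535 to 6998 and 6543 (2.01, adjusted p 8.54e-05). Cohesin and its regulators were divided: 7 of 15 rose and 2 fell, against 15.1% and 20.2% of all genes. The acetyltransferase Esco2, which acts on cohesin in S phase, went from 1351 and 1102 to 5354 and 4774 (2.05, adjusted p 0.000251). Separase, the protease encoded by Espl1, changed by 1.57 (adjusted p 0.000163). In the opposite direction went Esco1 (-0.62, adjusted p 0.0093), the other acetyltransferase, and Pds5b (-0.25, adjusted p 0.0178). Neither fall passed without E2F1 12 h replicate 2 (-0.41 and -0.23) or without E2F1 6 h replicate 1 (-0.57 and -0.22). Pds5b also did not pass under equal totals (-0.19) or without E2F1 12 h replicate 1 (-0.26). Of 23 genes of the APC/C and of SCF ligases 13 rose and 1 fell. Their largest changes were those of Ube2c, the ubiquitin-conjugating enzyme of the APC/C (1.65, adjusted p 0.000541), Cdca3 (1.49, adjusted p 0.00117) and Pttg1, which encodes securin (1.45, adjusted p 0.00393). Pttg1 had 526 and 605 at 0 h, 460 and 551 at 6 h, and 1311 and 1452 at 12 h.

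Regulators that act on mitotic promoters also moved. Foxm1 went from 4506 and 3612 to 12661 and 12256, a change of 1.63 (SE 0.25, adjusted p 0.000114). Mybl2, which encodes B-Myb, had 3290 and 3080 at 6 h and 5088 and 4888 at 12 h. Its change of 0.65 did not pass (adjusted p 0.0607), although both libraries were higher. It passed under equal totals (0.71, adjusted p 0.041) and when the fit held only the groups compared (adjusted p 0.00013). It had stood at 470 and 507 at 0 h. Of the 10 listed genes of pocket proteins, MuvB, B-Myb and FoxM1, 5 rose and 0 fell, against 15.1% rises over all genes. Fewer rose without E2F1 6 h replicate 1. Among the rises was Rbl1, the gene of the pocket protein p107, with 0.85 (adjusted p 0.003).

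Promoter sequences are printed for the 3 largest rises of the mitotic entry list that had a RefSeq window, and for the pair of MCM genes that fell, so that mitotic and licensing promoters can be read side by side. Each run is the 250 bases before the RefSeq start site in GRCm38.p6, 5′ to 3′ on the gene's strand. Capitals mark matches to the CHR (TTTGAA), the CCAAT box (CCAAT) and an E2F site (TTTCCCGC, TTTCGCGC, TTTGCCGC or TTTGGCGC), on either strand.
Ccnb2, chr9:70421555-70421804, minus strand: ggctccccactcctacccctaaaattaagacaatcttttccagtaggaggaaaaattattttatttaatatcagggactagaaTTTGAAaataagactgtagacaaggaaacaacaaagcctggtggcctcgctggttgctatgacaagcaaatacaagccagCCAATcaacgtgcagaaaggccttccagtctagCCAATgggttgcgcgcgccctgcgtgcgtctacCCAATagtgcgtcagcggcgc
Mastl, chr2:23156025-23156274, minus strand: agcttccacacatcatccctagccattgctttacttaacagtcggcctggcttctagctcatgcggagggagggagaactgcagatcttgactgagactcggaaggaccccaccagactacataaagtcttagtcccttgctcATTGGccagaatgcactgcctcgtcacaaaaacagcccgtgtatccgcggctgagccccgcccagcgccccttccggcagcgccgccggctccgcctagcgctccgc
Plk1, chr7:122159185-122159434, plus strand: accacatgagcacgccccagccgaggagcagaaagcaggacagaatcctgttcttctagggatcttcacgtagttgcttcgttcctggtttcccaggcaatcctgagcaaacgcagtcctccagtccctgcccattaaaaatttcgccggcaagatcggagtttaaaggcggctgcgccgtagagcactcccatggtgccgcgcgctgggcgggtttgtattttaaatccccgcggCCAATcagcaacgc
Mcm6, chr1:128359706-128359955, minus strand: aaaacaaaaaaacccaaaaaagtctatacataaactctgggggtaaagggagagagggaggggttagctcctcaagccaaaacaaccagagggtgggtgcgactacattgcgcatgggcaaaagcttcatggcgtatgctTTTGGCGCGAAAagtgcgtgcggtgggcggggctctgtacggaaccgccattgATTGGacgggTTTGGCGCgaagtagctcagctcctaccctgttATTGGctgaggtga
Mcm2, chr6:88898781-88899030, minus strand: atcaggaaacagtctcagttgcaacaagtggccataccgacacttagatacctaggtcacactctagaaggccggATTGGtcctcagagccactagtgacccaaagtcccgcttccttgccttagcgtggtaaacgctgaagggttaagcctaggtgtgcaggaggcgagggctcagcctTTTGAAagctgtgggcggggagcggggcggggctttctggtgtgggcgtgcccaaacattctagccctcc

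Ccnb2 holds 3 CCAAT boxes, at 87, 54 and 21 bases upstream of its start, and a CHR at 167 bases. Another CHR match of Ccnb2 lies in the 50 bases after the start. Plk1 holds a CCAAT box 14 bases upstream, and its CHR match lies in the 50 bases after the start, which are not printed. Mastl holds a CCAAT box at 107 bases and no CHR, in the printed bases or after the start. Mcm6 holds 3 matches to the E2F letters, at 110, 106 and 47 bases, the first pair overlapping on opposite strands, whereas the Mcm2 window holds none. The window of Mcm2, which fell, does hold a CHR at 70 bases and a CCAAT box at 175 bases. Over the 300 bases from 250 before to 50 after the start, 8609 of the 11208 genes had a window. A CHR was in 11.6% of these, in 40.5% (90 of 222) of the genes that rose at least 2-fold and in 7.48% (8 of 107) of those that fell at least 2-fold. It was in 24 of 30 of the spindle and cytokinesis genes, in 43.9% (18 of 41) of the kinetochore genes and in 22.7% (5 of 22) of the origin licensing genes. The CCAAT box was in 39.9% of all windows, in 59.0% of the large rises and in 11 of 11 windows of mitotic entry genes, and also in 13 of 22 of the licensing and 12 of 18 of the recombination genes. The recombination genes held a CHR in 3 of 18 windows and both motifs in 0 of 18. The E2F letters were in 4.54% of all windows, in 10.8% of the large rises and in 11 of 22 of the licensing genes. A match describes the letters and not a bound site.

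**Figure D2:**
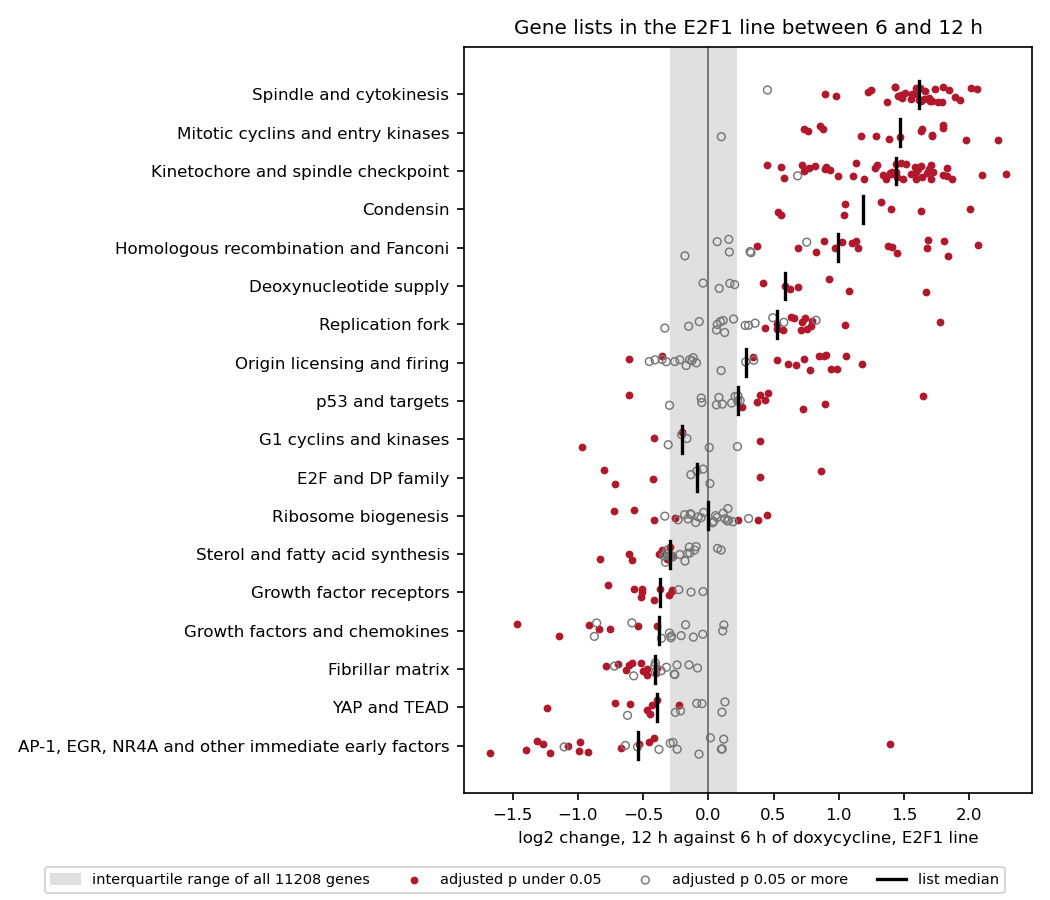
Each point is a gene of the list named on the left, placed by its log2 change between 6 and 12 h in the E2F1 line (horizontal axis); filled points passed an adjusted p of 0.05, open points did not, vertical ticks are list medians and the grey band is the interquartile range of all genes. Lists of mitosis sit highest, with a median of 1.61 for spindle and cytokinesis genes, and immediate early factors lowest, with a median of -0.54.

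Origin licensing and firing, which loads and activates the MCM helicase, did not follow mitosis as a block. Of 29 genes 13 rose and 2 fell, against 15.1% and 20.2% of all genes, with a median of 0.29. The rises numbered 8, 7 and 5 without E2F1 12 h replicate 1, E2F1 12 h replicate 2 and E2F1 6 h replicate 2, and the falls 0 or 1 without 3 of the libraries and 7 when the fit held only the groups compared. Mcm6 (ENSMUSG00000026355.11, chromosome 1, 128331590 to 128359664), a subunit of the helicase, had 13434 and 14305 normalized counts at 6 h and 8373 and 9848 at 12 h, after 4817 and 4588 at 0 h. Both 12 h libraries lay between the 0 h and the 6 h libraries, and the change of -0.61 (SE 0.15, adjusted p 0.0045) did not pass without E2F1 12 h replicate 1 (-0.49). Mcm2 went from 9908 and 10145 to 7395 and 8294 (-0.36, adjusted p 0.0194), a call kept only without E2F1 12 h replicate 2 among the left-out libraries.

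Mcm3, also of the helicase, and Cdc6, its loader, did not pass in the fit over all libraries. Mcm3 had 9894 and 9676 at 6 h and 7063 and 7692 at 12 h (-0.41, adjusted p 0.0644), and Cdc6 had 2358 and 2254 and then 1602 and 1770 (-0.45, adjusted p 0.107). Both passed as falls when the fit held only the groups compared (adjusted p 0.00279 and 0.00397). Of the members that rose, the largest changes were those of the helicase gene Recql4, by 1.18 (adjusted p 0.00237), Mcm8, an MCM relative with a role in recombination, by 1.05 (adjusted p 0.00244), and Cdc7, the kinase that fires origins, from 1550 and 1281 to 2898 and 2691, by 0.99 (adjusted p 0.000186). The naming rule required that the groups of these 3 did not overlap.

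Enzymes of deoxynucleotide supply rose in 7 of 11 cases and fell in 0, and 4 rose without E2F1 12 h replicate 2, E2F1 6 h replicate 1 or E2F1 6 h replicate 2, or without the mean-variance trend. Thymidine kinase, Tk1, went from 4781 and 4242 to 13843 and 14817 (1.67, adjusted p 1.19e-05). Rrm1, the large subunit of ribonucleotide reductase, went from 11751 and 9896 to 22972 and 22672 (1.08, adjusted p 4.83e-05). Its small subunit, Rrm2, went from 12582 and 10444 to 18684 and 18266 (0.69, adjusted p 0.0365), and this call was lost with any of the 4 libraries left out, at 0.55 to 0.82. At 0 h Rrm1 had stood at 5846 and 5489, and Rrm2 at 1617 and 1341.

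At the replication fork 14 of 29 genes rose and 0 fell, with a median of 0.53. The largest change was that of Top2a, the topoisomerase that untangles sister chromatids, from 20623 and 16950 to 64589 and 63370 (1.77, adjusted p 4.8e-05). The sliding clamp Pcna stood at 15075 and 14869 at 6 h and at 15233 and 17240 at 12 h (0.11, adjusted p 0.609). Of the replication checkpoint 8 of 14 rose and 0 fell, with 4 without E2F1 12 h replicate 1 and 5 without either E2F1 6 h library, and the kinase Chek2 had the largest change (1.55, adjusted p 0.000149). Of chromatin assembly and maintenance methylation 6 of 13 rose and 0 fell, with 3 without E2F1 6 h replicate 2. The histone variant gene H2afx went from 1922 and 1998 to 4595 and 5186 (1.32, adjusted p 5.72e-05).

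In repair by homologous recombination and the Fanconi pathway 17 of 24 genes rose, with 0 falls and a median of 0.998. There were 9 rises when only genes with a mean of at least 500 were tested, a setting that leaves out list members such as Eme1, Fanci and Rad54b. Eme1, the partner of the Mus81 nuclease, went from 313 and 265 to 1109 and 1323 (2.07, adjusted p 4.66e-05). Fanci, a subunit of the complex that is ubiquitinated at stalled forks, went from 630 and 393 to 1772 and 1788 (1.84, adjusted p 0.000281). Rad54b changed by 1.80 (adjusted p 0.000517). A glycosylase outside the list, Neil3, went from 891 and 604 to 3524 and 3502 (2.26, adjusted p 0.000273).

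Ung went the other way. It encodes uracil-DNA glycosylase, which removes uracil from DNA (ENSMUSG00000029591.14, chromosome 5, 114130386 to 114139323). Its levels in the E2F1 line were 260 and 197 at 0 h, 302 and 355 at 2 h, 1303 and 1153 at 6 h and 327 and 334 at 12 h. Both 12 h libraries were therefore far below both 6 h libraries and near the 2 h level. The change between 6 and 12 h was -1.89 (SE 0.32, adjusted p 0.000255), 3.72-fold by the means.

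Among the E2F and DP genes 2 of 9 rose and 3 fell, against 15.1% and 20.2% of all genes. The rises were fewer when any of the 4 libraries was left out. E2f1 itself, counted as the mouse gene so that a construct of another sequence need not be included, had 3806 and 3602 at 6 h and 2683 and 2845 at 12 h. The change of -0.42 (SE 0.11, adjusted p 0.00649) did not pass without E2F1 12 h replicate 1 (-0.38) or E2F1 6 h replicate 1 (-0.38). E2f3, another activator, fell from 1951 and 1616 to 1038 and 1128 (-0.71, adjusted p 0.000117), near its 0 h libraries at 1076 and 956. Tfdp2, a DP partner, fell by 0.80 on the log2 scale (adjusted p 1.65e-05), while the other partner, Tfdp1, rose by 0.40 (adjusted p 0.00132).

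The atypical repressor E2f8 went from 3505 and 2880 to 5897 and 5685 (0.87, adjusted p 0.0334), and this call was lost with any of the 4 libraries left out, at 0.72 to 1.01. Its relative E2f7 did not pass, at 10316 and 8937 and then 9316 and 8220 (-0.13, adjusted p 0.653). The cyclin E genes, direct partners of Cdk2 in G1, did not pass in the fit over all libraries. Ccne1 had 10461 and 9521 at 6 h and 9972 and 10090 at 12 h (0.01, adjusted p 0.984), and its groups overlapped. Ccne2 had 9083 and 8538 and then 7548 and 6708 (-0.31, adjusted p 0.364), and passed as a fall when the fit held only the groups compared (adjusted p 0.0189).

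Of the 9 G1 cyclins and kinases 1 rose and 3 fell, against 15.1% and 20.2% of all genes. The rise was that of Cdk2 (0.40, adjusted p 0.0097), which did not pass without E2F1 12 h replicate 2 or E2F1 6 h replicate 2. Without E2F1 12 h replicate 2 or without E2F1 6 h replicate 1, or under equal totals, there was 1 fall. Ccnd2, which encodes cyclin D2, fell from 5043 and 4410 to 2388 and 2428 (-0.97, adjusted p 1.25e-06). Of 4 CDK inhibitor genes 2 rose. Cdkn2d, the gene of p19 of the INK4 family, went from 997 and 857 to 3211 and 3470 (1.85, adjusted p 8.3e-05), and Cdkn2c, its relative p18, from 15715 and 15469 to 23508 and 26174 (0.67, adjusted p 2.04e-05). Cdkn1a, the gene of p21, had a change of 0.20 (adjusted p 0.131), after it had gone from 3066 and 2954 at 0 h to 13789 and 12293 at 6 h.

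Signalling genes come next. Of 26 immediate early transcription factors 13 fell and 1 rose, against 20.2% falls over all genes, with a median of -0.54. The falls numbered 7 without E2F1 12 h replicate 2 and 8 without E2F1 6 h replicate 1. Egr1 (ENSMUSG00000038418.7, chromosome 18, 34859823 to 34864984), a zinc finger factor of the serum response, had 10500 and 8304 at 6 h and 4140 and 3419 at 12 h. Its levels had been 4508 and 6762 at 0 h and 2279 and 2216 at 2 h, so the 12 h libraries lay below all 0 h and 6 h libraries. The change was -1.31 (SE 0.23, adjusted p 0.000308).

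Nr4a3, an orphan nuclear receptor, had 398 and 260 at 6 h and 156 and 64 at 12 h, against 17 and 4 at 0 h. Its change of -1.68 (SE 0.61, adjusted p 0.0398) did not pass without E2F1 12 h replicate 2 (-1.04), E2F1 6 h replicate 1 (-1.37) or E2F1 6 h replicate 2 (-1.98). Fosb, an AP-1 subunit, changed by -1.40 (adjusted p 0.00231), and did not pass without E2F1 12 h replicate 2 (-0.92). The single rise was that of Nr4a2, a close relative of Nr4a3, from 336 and 241 to 814 and 690 (1.39, adjusted p 0.000163). Of ERK feedback genes 2 of 10 fell, a share near the 20.2% of all genes, and 0 rose, with 0 falls without E2F1 12 h replicate 2 or E2F1 6 h replicate 1, 1 without E2F1 12 h replicate 1 and 4 without E2F1 6 h replicate 2.

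In the MYC network 2 of 11 genes rose and 4 fell, against 15.1% and 20.2% of all genes, so the rises were near that share. The falls were fewer, and near that share, without E2F1 12 h replicate 1. The rises were fewer with any of the 4 libraries left out. Mxd4 (ENSMUSG00000037235.13, chromosome 5, 34173883 to 34187720) encodes a MAX partner that opposes MYC. It had 5859 and 6202 at 0 h, 7541 and 6753 at 2 h, 3291 and 3795 at 6 h and 1147 and 1387 at 12 h. The change between 6 and 12 h was -1.49 (SE 0.17, adjusted p 7.73e-06). Its relative Mxd3 moved the opposite way, from 1460 and 1456 to 4547 and 5490 (1.78, adjusted p 0.00173). Myc had 2791 and 2166 at 6 h and 1365 and 1116 at 12 h (-0.99, adjusted p 0.000106), below its 2399 and 2434 at 0 h.

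Growth factors and chemokines fell in 7 of 20 cases and rose in 0, against 20.2% falls over all genes, with a median of -0.38. Pdgfa, a platelet-derived growth factor chain (ENSMUSG00000025856.15, chromosome 5, 138976014 to 138997370), had 552 and 513 at 0 h, 1975 and 1910 at 6 h and 698 and 706 at 12 h. It was thus raised at 6 h and near its starting level at 12 h, and its change between 6 and 12 h was -1.47 (SE 0.12, adjusted p 3.22e-07). Hbegf, an EGF receptor ligand, had 2088 and 1561 and then 980 and 676 (-1.15, adjusted p 6.26e-05). Il11 changed by -0.91 (adjusted p 0.00634) and did not pass without E2F1 6 h replicate 1 (-0.46).

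Growth factor receptors fell in 10 of 13 cases and rose in 0, against 20.2% falls over all genes, with a median of -0.37. There were 3 falls without E2F1 6 h replicate 1, 4 without E2F1 12 h replicate 2 and 6 under equal totals or without the mean-variance trend. Bmpr2, a BMP receptor, went from 6738 and 6947 to 4134 and 3892 (-0.77, adjusted p 1.68e-05), and Fgfr2 from 2316 and 2257 to 1531 and 1551 (-0.57, adjusted p 4.83e-05). Of the YAP and TEAD list 8 of 15 fell and 0 rose, with 3 falls without E2F1 12 h replicate 2 or without E2F1 6 h replicate 1. Its target Ccn1 had 9357 and 6024 and then 3745 and 2707 (-1.24, adjusted p 0.00576), a call lost without either of the same libraries (-0.92 in the latter case). Of activin, TGF-beta and SMAD feedback genes 5 of 15 fell and 0 rose. The falls were fewer without E2F1 12 h replicate 2, E2F1 6 h replicate 1 or E2F1 6 h replicate 2. For the receptor, YAP and TEAD, and activin lists the lowest share of falls with a library left out was near or below 20.2%.

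Of 23 genes of the fibrillar matrix 11 fell and 0 rose, against 20.2% falls over all genes. The falls were 7 without E2F1 12 h replicate 1, without E2F1 6 h replicate 1 or under quantile normalization, and 17 when the fit held only the groups compared. Fbn1, which encodes fibrillin, went from 7817 and 8832 to 4778 and 4887 (-0.78, adjusted p 0.000104). Col1a1, the main collagen chain, went from 162364 and 146914 to 91191 and 99808 (-0.69, adjusted p 0.00593), and did not pass without E2F1 6 h replicate 1 (-0.62) or under quantile normalization (-0.45). As a check of the cell type, 4 of the 14 fibroblast markers fell and 0 rose, with a median of -0.26 against -0.04 for all genes, and 0 to 2 fell with a library left out. The markers of other cell types in the table were Tubb3 (-1.47), Sox9 (-0.47) and Map2 (1.21). Tubb3 had 41 and 56 at 6 h and 11 and 25 at 12 h.

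**Figure D3:**
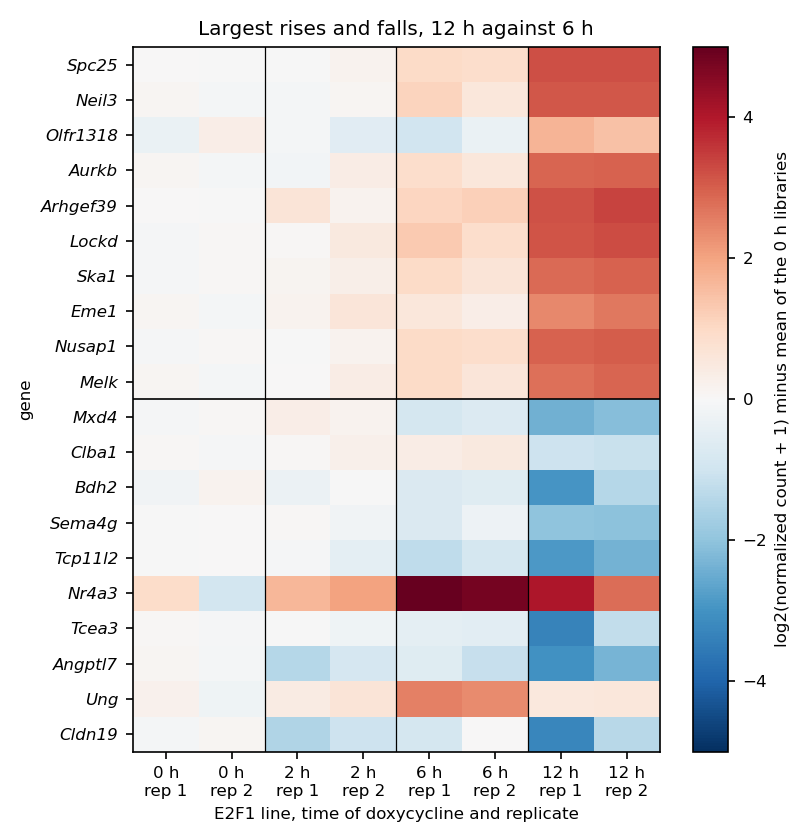
Heat map of the 10 largest rises (above the line) and the 10 largest falls under the naming rule; each column is an E2F1 line library and colour is log2(normalized count + 1) minus the mean of the 0 h libraries. Rises such as Spc25 deepen mainly between 6 and 12 h, and Ung, high at 6 h, is close to its 2 h colour at 12 h.

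Outside the lists, the largest rises included Olfr1318, annotated as an olfactory receptor, from 51 and 79 at 6 h to 332 and 278 at 12 h (2.24, adjusted p 0.000423). Lockd, a long noncoding RNA, changed by 2.11 (adjusted p 0.00166) and the kinase gene Melk by 2.05 (adjusted p 2.04e-05). The naming rule required that their groups did not overlap.

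The remaining large falls were of less abundant genes. Clba1 (ENSMUSG00000037594.11, chromosome 12) had 1044 and 1138 at 6 h and 400 and 372 at 12 h, a change of -1.50 with a small error (SE 0.15, adjusted p 3.87e-06). Tcp11l2 had 1467 and 1544 at 0 h, 626 and 820 at 6 h and 203 and 293 at 12 h (-1.55, SE 0.19, adjusted p 1.57e-05). Sema4g, a semaphorin, changed by -1.53 (adjusted p 5.83e-05). These 3 kept their calls with each library left out.

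The other large falls were in genes of lower counts. Cldn19, a claudin, had 172 and 326 at 6 h and 32 and 121 at 12 h (-1.91, SE 0.55, adjusted p 0.0125). Angptl7 (-1.79, adjusted p 0.0131), Tcea3 (-1.77, adjusted p 0.0103) and Bdh2 (-1.52, adjusted p 0.00505) also fell. Without E2F1 12 h replicate 1 none of these 4 passed, at -0.96, -1.43, -0.71 and -0.75 in the order given. Cldn19 also failed without E2F1 6 h replicate 2 (-1.45), and Angptl7 and Tcea3 without E2F1 6 h replicate 1 (-1.53 and -1.76). Exons of Lockd, Eme1, Nusap1, Ncapg, Top2a, Fanci, Rad54b, Ube2c, H2afx, Ccna2, Plk1, Foxm1, Tk1, Recql4, E2f7, E2f8, Ccne2, Ccnd2, Cdk2, Cdkn1a, Mxd3, Mxd4, Pdgfa, Fgfr2, Fbn1, Map2 and Cldn19 overlap those of other annotated genes. Ccnb1, Ccnb2 and Pcna have named pseudogenes. Use of strand in the counting is not given in the sources used here, so these values are uncertain to that extent.

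The EV line measured the same 6 h of doxycycline and starvation without E2F1. The lines' steps share no libraries. The E2F1 step exceeded the EV step in 1120 genes (9.99%) and was below it in 1272 (11.3%). Without EV 6 h replicate 2 these counts were 679 and 681, and without EV 12 h replicate 1 the count below was 846. All lists of mitosis had negative medians in the EV line, at -0.77 for mitotic entry, -0.69 for the kinetochore and -0.89 for the spindle, and no gene of these 3 lists passed there, although Eme1 of the repair list did (-1.63, adjusted p 0.049). The difference between lines passed in 16 of 17, 45 of 47 and 33 of 34 genes of these lists, in each case higher for E2F1.

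Spc25 shows the parts of such a difference: it went from 331 and 625 to 170 and 229 in the EV line, a change of -1.20 (adjusted p 0.12), so that the difference of 3.49 (adjusted p 6.4e-05) was larger than the rise of 2.28 in the E2F1 line. The Mcm6 difference between lines did not pass, at -0.08 (adjusted p 0.84), and Mcm6 went from 1529 and 2042 to 1125 and 1324 in the EV line (-0.53). Its levels in the EV line were far below those of the E2F1 line at both times. Mxd4 stood at 6589 and 6535 and then at 6739 and 7228 in the EV line, and its steps differed by -1.57 (adjusted p 0.00026). Of the growth factor receptors 6 of 13 differed, all lower in the E2F1 step, and so did 8 of 23 fibrillar matrix genes. The immediate early factors differed in 8 of 26 genes in this direction and in 1 in the other. In other lists with falls, the difference between the lines passed as lower in 3 of 20 growth factors and 2 of 15 YAP and TEAD genes. It passed as lower in 0 of 10 ERK feedback genes and in 1 of 15 activin and TGF-beta genes, with 1 higher. The counts lower in these 4 lists were near or below the 11.3% of all genes. The EV medians of these 4 lists were negative too, at -0.22, -0.20, -0.16 and -0.25.

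Serum given to the EV line provided a comparison over the same hours. Its step held 2164 rises (19.3%) and 2308 falls (20.6%), or 3184 and 1392 under equal totals, which moved the median of all genes to 0.11. Across the 11208 genes the E2F1 and serum steps had a Pearson r of 0.40, a description over genes, which are not independent replicates. Of the 1688 rises in the E2F1 line 756 rose with serum too, which is 44.8% of them and 34.9% of the serum rises, and 120 fell. Of the 2265 falls 819 fell with serum, 36.2% of them and 35.5% of the serum falls, and 260 rose. The difference between the steps passed in 1271 genes higher for E2F1 (11.3%) and in 1691 lower (15.1%).

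Replication lists had smaller steps with E2F1 than with serum. In the licensing list 27 of 29 genes rose between 6 and 12 h of serum, with a median of 2.06 against 0.29 in the E2F1 line, and the difference passed in 23, all lower for E2F1. At the fork it passed in 27 of 29 and in homologous recombination in 16 of 24, again all lower. The levels at 6 h differed, however. Summed normalized counts of the licensing list were then 100957 and 96656 in the E2F1 line against 35004 and 32645 with serum. Those of the fork list were 128797 and 118811 against 33165 and 36140. At 12 h the licensing sums were 97837 and 102445 against 125808 and 113442, and the fork sums 192481 and 196494 against 134542 and 116098. Recombination sums were higher in the E2F1 line at both times. Mcm6 went from 2492 and 2322 to 11203 and 10095 with serum, where the E2F1 line fell, and the steps differed by -2.75 (adjusted p 1.6e-07). Ung went from 465 and 385 to 1522 and 1370 with serum, and the steps differed by -3.66 (adjusted p 1.8e-05).

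Mitotic genes differed among themselves in how the steps compared. Aurkb rose by 2.18 with serum and Cdk1 by 1.52, and the differences of 0.04 (adjusted p 0.96) and 0.20 (adjusted p 0.73) did not pass, which does not show that the steps were equal. The Cdk1 difference was -0.10 without serum 6 h replicate 2. Ccnb1 had 1030 and 1513 at 6 h of serum and 1017 and 895 at 12 h, so it did not pass there, and the difference of 2.10 passed (adjusted p 0.00095). The difference passed also for Plk1 (1.47, adjusted p 0.0061) and Ccnb2 (1.67, adjusted p 0.016), whose serum libraries overlapped between times. Over the mitotic entry list it was higher for E2F1 in 4 of 17 genes and lower in 2. Over the kinetochore the counts were 6 and 6 of 47, and over spindle and cytokinesis 4 and 0 of 34. Over all genes 11.3% were higher and 15.1% lower. Both kinetochore counts and the 4 higher spindle genes were therefore near the share of all genes. Medians of the E2F1 step were above those of the serum step for mitotic entry (1.47 and 0.60) and the spindle (1.61 and 1.11), and below them for the kinetochore (1.44 and 1.76) and condensin (1.19 and 1.94).

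Egr1 had 1183 and 752 at 6 h of serum and 2128 and 3244 at 12 h, a rise of 1.48 (adjusted p 5.19e-05) where the E2F1 line fell, and the steps differed by -2.79 (adjusted p 9.3e-06). Pdgfa fell in both, from 2979 and 2437 to 1574 and 1513 with serum (-0.80), less than in the E2F1 line by 0.66 (adjusted p 0.0062).

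**Figure D4:**
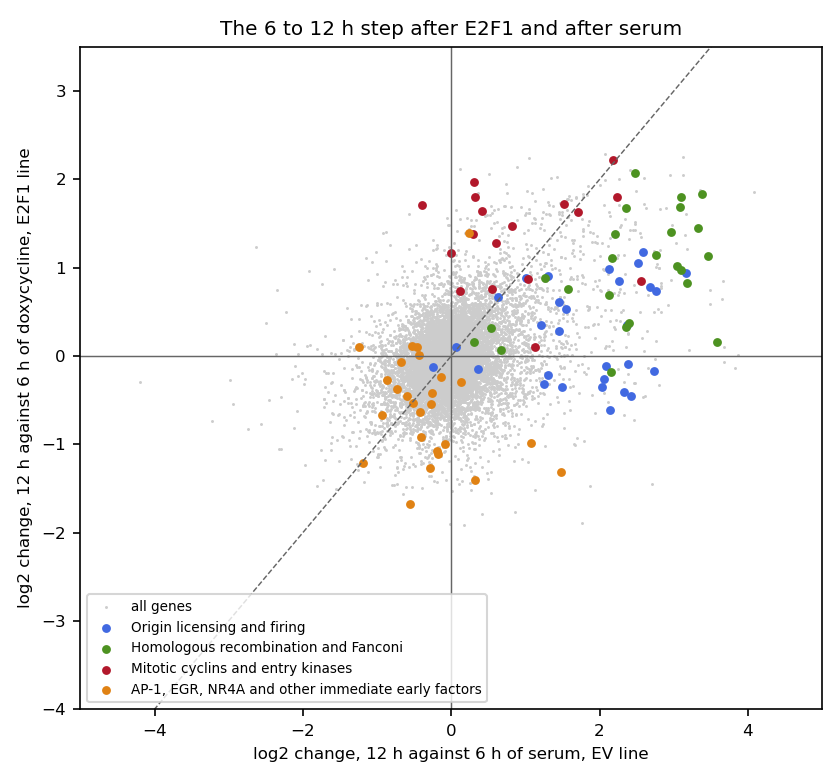
Log2 change between 6 and 12 h in the EV line with serum (horizontal axis) and in the E2F1 line with doxycycline (vertical axis) for all genes (grey) and 4 lists (colours); the dashed line marks equal change. Licensing genes lie far to the right at a median of 2.06 with serum and 0.29 with E2F1, while mitotic entry genes reach a median of 1.47 with E2F1 and 0.60 with serum.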

How the data were processed

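The authors deposited a table of normalized counts that they had scaled and rounded to whole numbers, per the file headers; no count test was run on it. These score values were scaled and rounded by the authors before they were deposited, per the file headers. The submitters' processing notes name FastQC, Trimmomatic, HISAT2, featureCounts and DESeq2 and the build mm10, without versions or roles. Libraries of polyadenylated RNA gave 150 bp paired-end reads, per the labels. On log2(value + 1), limma 3.58.1 (R 4.3.3) fitted a mean for each of 11 groups over 22 libraries with 11 residual degrees of freedom, a mean-variance trend and Benjamini-Hochberg adjustment over all 11208 genes, none of which a minimum of 10 in 2 libraries removed. Contrasts were 12 h against 6 h in the E2F1 line, the EV line with doxycycline and the EV line with serum, and the differences of the first from the others. EV 2 h libraries entered only the shared spread. The code was tested on simulated data. Alternatives were a pseudocount of 8, no filter, a mean of at least 500, quantile normalization, equal totals, a replicate block, no trend, only the groups compared and each library left out.

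Members and lists were chosen with earlier results of these data known. Named genes were the 10 largest rises and falls (adjusted p under 0.05, mean of at least 50, libraries not overlapping), up to 3 per list and direction, 3 at each end of the differences, and a fixed set; the members that alone missed a call, and Trp53, were named after their values were seen. No list was tested as a set. Positions are from GRCm38 with GENCODE M21, which held 10977 of the 11208 identifiers; promoters are RefSeq's. Python 3.11.15, pandas 2.3.3, numpy 2.4.6 and matplotlib 3.10.9 made tables and figures. Depth in reads is unknown, since the scaling had been applied.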

Additional observations from a re-analysis of the deposited data

Results flagged for a closer look

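Steps that differed between the E2F1 line and the EV line given doxycycline, by limma's test of the difference (log2 scale, adjusted p under 0.05), are given as values of the E2F1 step minus the EV step. Mitotic genes were higher: Spc25 by 3.49, Plk1 by 2.84, Ccna2 by 2.71, Ccnb1 by 2.65, Foxm1 by 2.58, Cdk1 by 2.49 and Aurka by 2.34. Eme1 was higher by 3.70, E2f8 by 1.89, Rrm2 by 1.59 and Mybl2 by 1.28. The Mybl2 call was lost with 4 of the left-out libraries (adjusted p up to 0.101). Other replication genes of the fixed set did not pass this test, at 0.51 for Ccne1 (adjusted p 0.26), 0.47 for Pcna (adjusted p 0.16, passing when the fit held only the groups compared), 0.43 for Cdc6 (adjusted p 0.34), 0.17 for Mcm3 (adjusted p 0.64) and 0.03 for Ccne2 (adjusted p 0.97). Nes, which encodes the filament protein nestin, differed by 3.82, with 184 and 149 and then 378 and 406 in the E2F1 line, and 11 and 8 and then 0 and 2 in the EV line, where values are too low for a fold. This call was lost in 8 of 15 settings, under quantile normalization (2.31) and with 7 of the left-out libraries (adjusted p up to 0.13). Lower in the E2F1 line were Tubb3 (-2.34), Tcea3 (-2.09), Trnp1 (-1.97), Egr1 (-0.99) and Myc (-0.61). The Tcea3 call was lost in 8 of 15 settings, with -1.03 without E2F1 12 h replicate 1 (adjusted p 0.225). The Myc call was lost in 8 of 16, among them equal totals (adjusted p 0.0672), the Egr1 call in 5 of 16 and the Trnp1 call in 2 of 15.

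Steps that differed between the E2F1 line and serum, by the same test, are given as the E2F1 step minus the serum step. Replication and E2F genes were lower in the E2F1 step: Dscc1 at -3.97, E2f2 at -3.85, Mybl2 at -2.997, Cdc6 at -2.88, Ccne2 at -2.79, Mcm3 at -2.73, E2f1 at -2.48, E2f8 at -2.09, Pcna at -1.97, Rrm2 at -1.96, and Ccne1 and E2f7 both at -1.62. Dscc1, a clamp loader factor, went from 45 and 39 to 609 and 610 with serum, and stood at 957 and 872 and then at 737 and 936 in the E2F1 line. Egr1 was at -2.79, Myc at -0.91 and Megf6 at -4.16, the last with 16 and 7 and then 57 and 99 in serum and with 189 and 151 and then 54 and 69 in the E2F1 line. Higher in the E2F1 step were Ccnb1 (2.10) and Plk1 (1.47), the chemokine gene Ccl9 (3.10), Nes (3.87) and Aldh3a1 (3.90). Aldh3a1 was listed at 0 in both serum 12 h libraries, after 20 and 15 at 6 h, so its fitted value is no bound. The Nes difference from serum lost its call with 5 of the left-out libraries (adjusted p from 0.057 to 0.084).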

How the results depend on the processing

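Of 211 single-gene results none that passed changed sign under the alternatives, and 8 that had not passed did. Of these, 60 lost a call when a library was left out, 20 lost it in another setting and 9 gained a call. With each library left out in turn, the E2F1 step held 1073 to 1209 rises and 1439 to 1674 falls, a fit in which the lone library of a group is assumed to vary like the others. The EV doxycycline falls were 5, but 3 with a pseudocount of 8 or a mean of at least 500, 2 under equal totals, 1 without a trend, 0 with only the groups compared, and 1 to 137 with a library left out, the highest without EV 6 h replicate 1, where the rises were 7 (0 otherwise). Serum falls were 1392 under equal totals and 1530 with only the groups compared. The difference from the EV step ran from 679 to 1023 higher and from 681 to 1146 lower with a library left out. The cause was not tested. Numbers of the replicates are shared between groups without the labels tying them. With the replicate block the EV step had 2 rises and 10 falls and the E2F1 step 1736 and 2386, and replicate differences of the E2F1 6 and 12 h groups correlated by 0.27. The depth in reads is unknown, and 2 libraries a group limit the precision.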

Other observations

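Of 20 listed genes of p53 and its targets 8 rose and 1 fell (background 15.1% and 20.2%), and 5 rose without E2F1 12 h replicate 1. Eda2r, a receptor of the TNF receptor family, had 565 and 509 normalized counts at 6 h and 1888 and 1503 at 12 h (1.65, adjusted p 3.16e-05 by limma). Ccng1, which encodes cyclin G1, went from 5947 and 6426 to 12432 and 10578 (0.89, adjusted p 1.03e-05), and in both genes the 12 h libraries lay above every earlier library of the line. The steps of Ccng1 differed from those of the EV line by 0.95 (adjusted p 0.00031) and from serum by 0.84 (adjusted p 0.00047). Ei24 changed by 0.73 (adjusted p 4.91e-06), while Trp53 itself had a change of -0.05. Of 14 genes linked to E2F1 and apoptosis 3 rose and 3 fell, which is near the 15.1% and 20.2% of all genes. Apaf1, a core of the apoptosome, went from 1664 and 1530 to 2587 and 2427 (0.65, adjusted p 0.000173), and Bcl2l11, the gene of Bim, from 2305 and 2275 to 1390 and 1532 (-0.65, adjusted p 0.00224).

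Metabolic and organelle lists held more falls than rises, as all genes did, of which 20.2% fell and 15.1% rose. Over all genes that order was reversed under equal totals, with 1771 falls and 2130 rises. Glycolysis and lactate genes fell in 8 of 21 cases and rose in 0, with 5 falls without E2F1 6 h replicate 1. Hk2, a hexokinase, had 1061 and 636 at 0 h, 2028 and 1553 at 6 h and 837 and 665 at 12 h (-1.25, adjusted p 0.000338). Of 26 genes of sterol and fatty acid synthesis 9 fell and 0 rose. The falls were 1 without E2F1 6 h replicate 1, 2 without E2F1 12 h replicate 2, 5 under equal totals and 16 with only the groups compared, and all 26 had negative values in the EV line. The difference between the E2F1 and EV steps passed in 1 of these genes in each direction. Fasn, the fatty acid synthase, went from 53017 and 46468 to 30647 and 25387 (-0.83, adjusted p 1.13e-05), next to 26539 and 25594 at 0 h. Lysosome and autophagy genes fell in 10 of 26 cases and rose in 1, with 6 falls with any of the 4 libraries left out. Clock genes fell in 6 of 15 and rose in 0, with 3 without E2F1 12 h replicate 2.

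Starvation and FOXO genes fell in 9 of 23 cases and rose in 1, with 5 falls without E2F1 12 h replicate 1 or E2F1 6 h replicate 2. Over all genes 15.1% rose and 20.2% fell, and the ATF4 and interferon-stimulated counts given below were near or under these shares. Ribosome biogenesis genes stood near the background, with 3 rises and 4 falls among 28 and a median of 0.00. The rises were 0 without E2F1 12 h replicate 1 or E2F1 6 h replicate 2, and the falls 2 without E2F1 12 h replicate 2 or E2F1 6 h replicate 1. Ubtf, a factor of RNA polymerase I, went from 7258 and 7573 at 0 h to 24402 and 23104 at 6 h and to 14091 and 14754 at 12 h (-0.72, adjusted p 9.41e-06). Matrix proteases and inhibitors were divided, with 4 rises and 8 falls among 17. The rises were 1 or 2 with a library left out, and the falls 4 without E2F1 12 h replicate 1 and 5 without E2F1 6 h replicate 2. Of 20 ATF4 response genes 1 rose and 3 fell, with 0 to 5 falls with a library left out, and of 11 interferon-stimulated genes 2 rose and 0 fell, with 1 rise without E2F1 12 h replicate 2 or E2F1 6 h replicate 1.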
